A study of Mus musculus with 7 samples.

Results

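The genes of Bmp and Tgf-beta ligands and of their secreted antagonists were chosen by name, as 34 genes of 21631 protein-coding genes on the autosomes and the X chromosome, and their positions were set beside called peaks of H3K27me3, the trimethylated lysine of histone H3 that Polycomb repressive complex 2 deposits at repressed genes. Chromatin came from epidermal progenitors of newborn mouse back skin (postnatal day 0), sorted as EpCAM-positive, Sca1-positive cells with high alpha6-integrin. The labels give 2 H3K27me3 libraries of Control cells and 2 of Ring1a/b 2KO cells, which lack the ubiquitin ligases of Polycomb repressive complex 1, and 1 list of called peaks was used per genotype. The labels do not name the alleles, the Cre driver or the genotype of the control animals. The titles of the 2KO libraries say H3K27me1 and their antibody field says H3K27me3, and their list was read as H3K27me3. All 34 genes had a position in the RefSeq table of mouse build GRCm38.p6, the build of the peaks (mm10). A gene was counted as marked when a peak lay within 1 kb of either of its ends. A gene without a called peak is not shown to lack the mark, and a single list per genotype leaves neither replicate error nor a test of one genotype against the other.

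Bone morphogenetic proteins (Bmp), growth and differentiation factors (Gdf), activins, Nodal and the Tgf-beta proteins are secreted dimers of one superfamily. They bind paired serine/threonine kinase receptors, which phosphorylate Smad proteins that then act on transcription in the nucleus. Secreted antagonists such as noggin, chordin, gremlin and follistatin bind the ligands outside the cell and keep them from their receptors. In skin, Bmp signals favour epidermal differentiation and hold hair follicle stem cells at rest, and noggin from the mesenchyme permits hair follicle induction. Tgf-beta signals slow keratinocyte division.

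The control list held 3631 peaks over 24.8 Mb and the 2KO list 2340 peaks over 16.4 Mb. Depth per library was unknown. None of the 6 basal epidermal marker genes (Krt5, Krt14, Trp63, Itga6, Itgb4, Col17a1) was marked in either list. Marker genes of other cells were marked in control and 2KO cells as follows: 5 and 3 of 6 for dermal fibroblasts, 4 and 3 of 4 for Merkel cells, 2 and 2 of 4 for endothelium, 1 and 1 of 4 for melanocytes, and 1 and 3 of 4 for immune cells. Over all protein-coding genes the shares marked were 10.1% in control and 6.63% in 2KO cells. The immune genes marked in the 2KO list alone were Cd207 and Cd3g, and their 2KO peaks lay 59.6 and 54.7% under control peaks. An H3K27me3 list does not measure RNA, and the part of other cell types in the values below was not tested. Neither list marked Ring1, Rnf2 or Eed. Peaks, present or absent, cannot show whether a gene was deleted, so the knockout itself was left unchecked by these data.

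Among the ligand and antagonist genes, 15 of 34 (44.1%) were marked in control cells, where 10.1% of all protein-coding genes were. The members and the lists below were chosen with earlier results of these data known. Their contrasts with all genes are therefore descriptions and not tests. In the 2KO list 7 of 34 (20.6%) were marked, against 6.63% of all genes. These 7 were also marked in control cells: Bmp6, Gdf6, Gdf7, Amh, Lefty2, Grem1 and Bmper. The control list alone marked Bmp3, Bmp4, Bmp8a, Bmp8b, Gdf10, Inhbb, Lefty1 and Nog, and no member was marked in the 2KO list alone. The share of control-marked members that the 2KO list also marked was 46.7% (95% Wilson interval 24.8 to 69.9%, counting error only), beside 55.5% over all genes, a value inside that interval. Among the other 19 members, Tgfb2 and Chrd held control peaks inside the gene that lay beyond 1 kb from its ends, and the remaining 17 had no called peak over the gene in either list. The members nearest to the limit of 1 kb were Amh inside it, 481 bp from its control peak, and Gdf11, Chrd and Tgfb2 outside it, at 1233, 1394 and 1820 bp from an end.

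**Figure D1:**
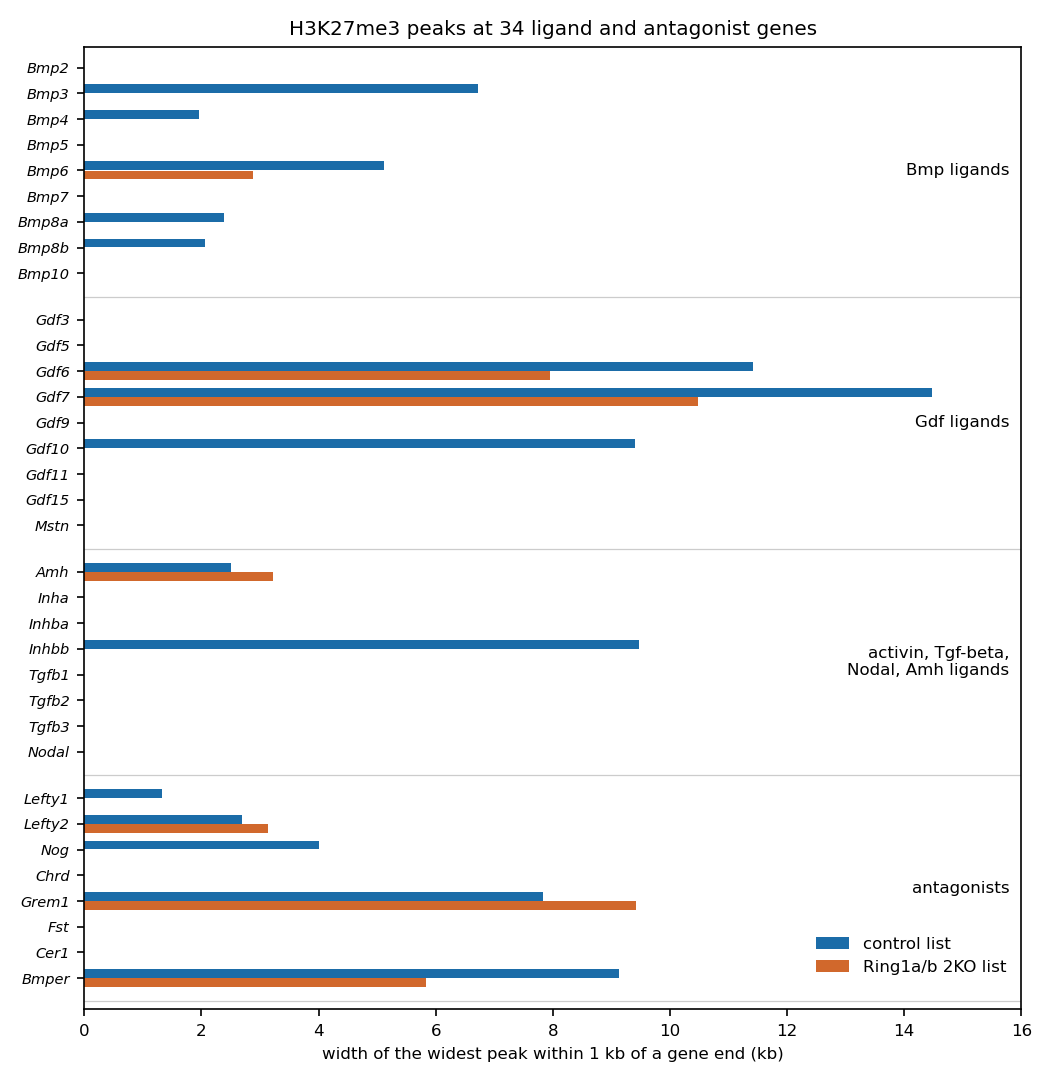
Width in kb of the widest H3K27me3 peak within 1 kb of a gene end, for 34 genes in 4 groups by role, in the control (blue) and Ring1a/b 2KO (orange) lists; no bar means no such peak. Blue bars stand at 15 genes and orange bars at 7, and the widest of each is at Gdf7.

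The RefSeq promoter table (GRCm38.p6) held a window of 250 bases before to 50 bases after the transcription start for 21 of the 34 genes, which also gave the strand and start site that the gene table lacks. Polycomb marks in mammals lie mainly at promoters rich in CpG, so the CG dinucleotide was counted in each window (letters CG, which read the same on both strands). Of all 21045 windows of protein-coding genes, 95.5% held at least 1 CG. The windows below are shown 5′ to 3′ with each CG in capitals. Those of Gdf7 and Grem1 lay wholly under peaks of both lists, those of Inhbb and Tgfb2 under control peaks only, and that of Bmp10 under no peak. Their positions are chr12:8301905-8302204 (minus strand) for Gdf7, chr2:113758599-113758898 (minus) for Grem1, chr1:119422199-119422498 (minus) for Inhbb, chr1:186705940-186706239 (minus) for Tgfb2 and chr6:87428744-87429043 (plus) for Bmp10.
Gdf7: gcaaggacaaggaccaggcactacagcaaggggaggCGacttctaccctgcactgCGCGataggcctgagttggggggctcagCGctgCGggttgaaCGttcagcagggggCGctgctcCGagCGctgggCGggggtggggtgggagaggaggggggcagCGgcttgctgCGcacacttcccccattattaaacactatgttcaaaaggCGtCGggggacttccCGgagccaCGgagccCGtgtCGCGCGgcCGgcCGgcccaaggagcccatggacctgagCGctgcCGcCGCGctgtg
Grem1: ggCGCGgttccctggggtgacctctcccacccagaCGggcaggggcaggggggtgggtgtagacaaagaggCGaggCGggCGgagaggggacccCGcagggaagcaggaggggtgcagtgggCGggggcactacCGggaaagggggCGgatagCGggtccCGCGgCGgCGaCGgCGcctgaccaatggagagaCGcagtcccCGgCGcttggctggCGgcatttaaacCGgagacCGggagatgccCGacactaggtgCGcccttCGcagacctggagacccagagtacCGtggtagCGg
Inhbb: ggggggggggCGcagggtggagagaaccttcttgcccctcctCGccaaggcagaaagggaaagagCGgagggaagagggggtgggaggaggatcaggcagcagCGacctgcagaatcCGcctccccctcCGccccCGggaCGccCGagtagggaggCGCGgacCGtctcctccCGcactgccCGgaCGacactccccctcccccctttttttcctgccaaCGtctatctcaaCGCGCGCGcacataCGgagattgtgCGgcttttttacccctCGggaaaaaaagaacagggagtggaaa
Tgfb2: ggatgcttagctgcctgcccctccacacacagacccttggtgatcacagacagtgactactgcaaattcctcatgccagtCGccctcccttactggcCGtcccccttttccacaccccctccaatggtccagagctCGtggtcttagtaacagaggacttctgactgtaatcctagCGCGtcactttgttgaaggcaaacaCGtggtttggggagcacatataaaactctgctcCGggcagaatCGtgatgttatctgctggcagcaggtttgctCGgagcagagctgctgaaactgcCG
Bmp10: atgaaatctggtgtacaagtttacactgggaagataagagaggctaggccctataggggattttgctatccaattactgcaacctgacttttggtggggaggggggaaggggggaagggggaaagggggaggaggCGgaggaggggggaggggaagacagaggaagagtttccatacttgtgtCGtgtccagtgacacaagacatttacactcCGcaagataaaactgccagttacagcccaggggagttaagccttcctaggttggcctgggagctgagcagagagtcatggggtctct

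The window of Gdf7 held 26 CG, that of Grem1 28 and that of Inhbb 23, whereas that of Tgfb2 held 10 and that of Bmp10 held 3. Relative to the number expected from the C and G content of each window, the ratios were 0.766, 0.792, 0.741, 0.458 and 0.165. Over the 4 members with a window that were marked in both lists (Bmp6, Bmper, Gdf7, Grem1), the ratio was 0.75 to 0.79. All 4 windows lay wholly under a peak of each list. Over the 5 marked in the control list alone it was 0.42 to 0.96, lowest at Bmp4 and highest at Gdf10. The 13 windows of 12 unmarked members had a median of 0.31 (0.04 to 0.83), where Gdf11, Chrd and Tgfb1, at 0.833, 0.8 and 0.694, were the CpG-rich ones. Over all protein-coding genes the medians were 0.62 for genes marked in both lists, 0.68 for the control list alone and 0.56 for unmarked genes. The median of the unmarked members was thus below that of unmarked genes at large, a difference that was not tested. Tgfb2 and Chrd count as unmarked here although a control peak covers their windows. The classes of marked members overlapped. Promoter windows are a subset of the members, and no sequence was given for the other 13.

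**Figure D2:**
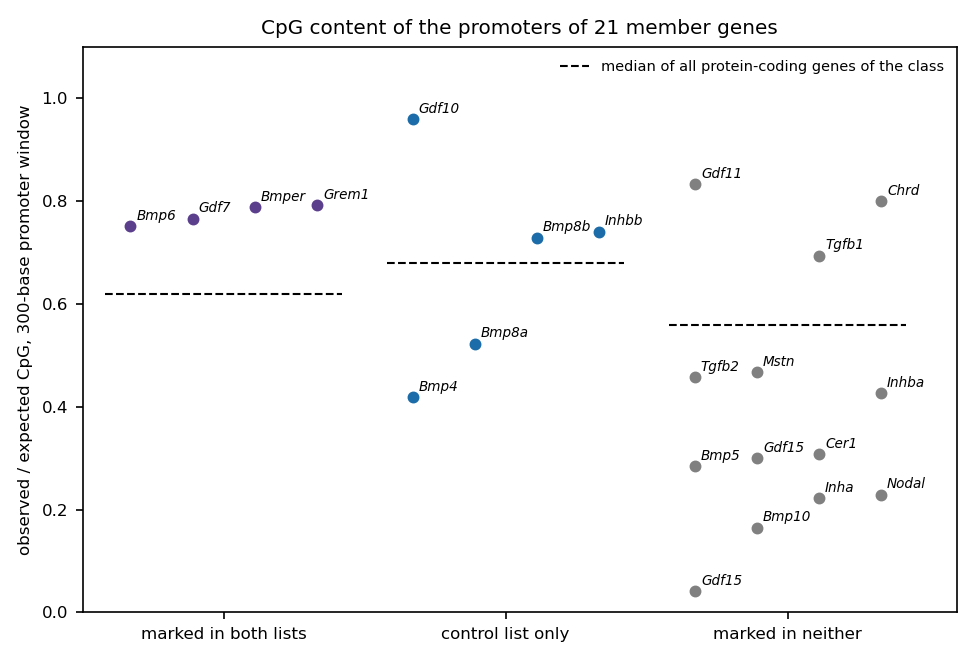
Observed over expected CpG in the promoter window of 300 bases for 21 genes (Gdf15 has a pair of windows), by class of peak at the gene ends; dashed lines are medians of all protein-coding genes of the class. The 4 genes marked in both lists sit between 0.75 and 0.79, and most unmarked genes sit below the dashed line at 0.56; Tgfb2 and Chrd count as unmarked by gene ends although a control peak covers their window.

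The control list marked 5 of the 9 Bmp ligand genes (55.6%, against 10.1% of all protein-coding genes). The 2KO list also marked 1 of these 5 (20%, Wilson interval 3.62 to 62.4%). The share over all genes, 55.5%, lies inside that interval. The Bmp ligand gene in both lists was Bmp6, whose product acts in iron balance and is made by suprabasal keratinocytes (chromosome 13, 38345716 to 38500314). Its control peak measured 5.11 kb and its 2KO peak 2.88 kb (ratio 0.563), and both lay over the start site at the lower end of the gene, the 2KO peak wholly inside the control peak. Bmp3, which encodes a ligand that opposes osteogenic Bmps (chromosome 5, 98854415 to 98884053), had a control peak of 6.72 kb over its lower end. The closest 2KO peak lay 592 kb away. Bmp4, a ligand of follicle mesenchyme and many embryonic tissues (chromosome 14, 46383525 to 46390669), had control peaks of 1.34 and 1.95 kb inside the gene, the wider of them ending 90 bp short of the start site. Its closest 2KO peak lay 432 kb away.

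Bmp8a and Bmp8b, neighbouring paralogs with roles in germ cells (chromosome 4, 123312645 to 123343252 and 123104308 to 123126094), lay 187 kb apart. Their control peaks measured 2.38 and 2.06 kb, and neither gene had a 2KO peak, the closest being 71.1 and 45.8 kb away. The Bmp8b peak covered its start site, and that of Bmp8a ended 223 bp inside the gene. Their promoter windows aligned at 45.2% identity, and 3 other alignments of member windows (Bmp8a with Inhbb, Gdf7 with Grem1, Inhbb with Tgfb2) gave 43.4, 47.1 and 40.8%. Whether reads shared by the coding parts of these paralogs were placed at either gene was not tested, so the peaks are uncertain in that respect. The peaks of Bmp4, Bmp8a and Bmp8b were all under 2.4 kb, a width that 14.9% of control and 8.85% of 2KO peaks did not reach. Bmp2, Bmp5, Bmp7 and Bmp10 had no peak in either list over the gene or at its ends. Bmp2 and Bmp7, ligands of limb and hair placode and of kidney, lay 670 and 643 kb from the closest control peak, and Bmp5 and Bmp10, ligands of skeleton and heart, 162 and 154 kb.

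Among the 9 Gdf genes, the control list marked 3 (33.3%) and the 2KO list 2 of those 3 (66.7%, Wilson interval 20.8 to 93.9%). Over all protein-coding genes these shares were 10.1 and 55.5%. Gdf7, a roof plate signal of the spinal cord (chromosome 12, 8297918 to 8301954), lay wholly under the widest peak at any member in each list, 14.5 kb for control (8294327 to 8308805) and 10.5 kb for 2KO cells (8294927 to 8305402). The ratio of widths was 0.724. Most of the missing length was upstream of the gene, where the 2KO peak ended 3403 bp earlier. A further control peak of 3.06 kb farther upstream, at Hs1bp3, had no 2KO counterpart. The main peak also lay within 1 kb of an end of Ldah, a lipid droplet gene. Gdf6, a factor of joint and eye development (chromosome 4, 9844372 to 9862345), had 2 control peaks, of 11.4 kb at its lower end and 5.34 kb at its upper end. The 2KO list held 1 peak of 7.96 kb, wholly inside the former (69.7% of it), and none over the latter.

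Gdf10, an atypical ligand also called Bmp3b (chromosome 14, 33923587 to 33936514), had a control peak of 9.40 kb over its start site. It had no 2KO peak within 39.4 kb. Gdf11, a patterning factor of the body axis, and its neighbour Cd63, a tetraspanin gene, bordered a control peak of 5.34 kb that began 1233 bp upstream of the Gdf11 start and had no 2KO counterpart. It lay within 1 kb of an end of Cd63. Gdf3, a ligand of the early embryo, Gdf5, a joint factor, Gdf9, an oocyte factor, Gdf15, a stress-induced ligand, and Mstn, the gene of the muscle growth inhibitor myostatin, had no peak. They lay 48.5, 163, 17.8, 105 and 1124 kb from the closest control peak, so none of these distances was near the window of 1 kb.

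**Figure D3:**
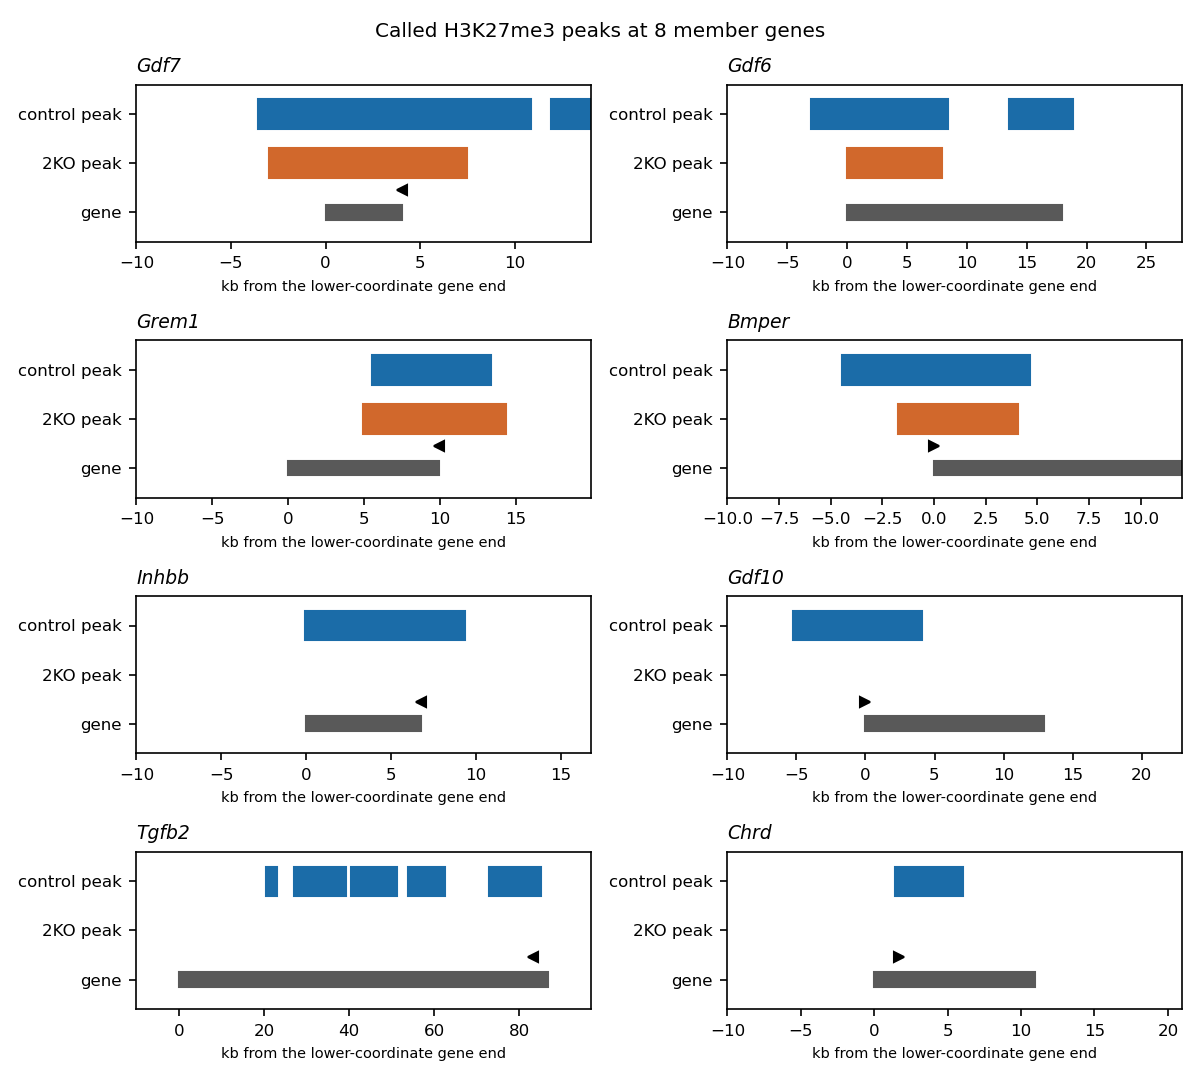
Called peaks at 8 genes in kb from the lower-coordinate gene end: control peaks (blue), Ring1a/b 2KO peaks (orange) and the gene (grey), with an arrowhead at the start site pointing along transcription where the promoter table gave one. The Bmper gene and the far control peak beside Gdf7 run past the edge of their panels; Gdf7, Gdf6, Grem1 and Bmper have peaks of both lists, and Inhbb, Gdf10, Tgfb2 and Chrd control peaks only.

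In the group of activin, Tgf-beta, Nodal and Amh genes, the control list marked 2 of 8 (25%). The 2KO list marked 1 of those 2 (50%, Wilson interval 9.45 to 90.5%). Over all protein-coding genes these shares were 10.1 and 55.5%. Inhbb, which encodes the activin beta-B chain (chromosome 1, 119415463 to 119422248), lay wholly under a control peak of 9.46 kb (119415375 to 119424839). No 2KO peak was called within 914 kb of it. The peak counted for Amh, which encodes anti-Müllerian hormone (chromosome 10, 80805240 to 80807679), covered none of the gene. The control peak measured 2.50 kb and the 2KO peak 3.22 kb. They lay 481 and 240 bp past the upper end of Amh and within 1 kb of an end of Jsrp1, a skeletal muscle gene. With a peak required at the gene end itself, Amh was marked in neither list.

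Tgfb2, a Tgf-beta ligand of dermal papilla and many mesenchymal tissues (chromosome 1, 186622787 to 186709697), held the largest called length of all 34 genes in control cells. Its 5 control peaks, of 2.72, 12.4, 10.7, 8.54 and 12.2 kb, covered 46.6 kb, or 53.6% of the gene, between 186643183 and 186707877. The last of them covered the start site of the promoter table and ended 1.89 kb upstream of it. The gene was left out of the marked genes because its annotated end lies 1820 bp beyond that peak. No 2KO peak was called over Tgfb2, and the closest lay 119 kb from the gene. Across the genome 13 protein-coding genes had at least 5 control peaks over the gene, and 6 of these had no 2KO peak there. Its relatives Tgfb1 and Tgfb3 had no peak, the closest control peaks lying 11.1 and 131 kb away. Inha and Inhba, which encode the inhibin alpha and activin beta-A chains, and Nodal, the mesoderm inducer, lay 19.8, 1480 and 168 kb from the closest control peak.

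The control list marked 5 of the 8 antagonist genes (62.5%), against 10.1% of all protein-coding genes. The 2KO list also marked 3 of these 5 (60%, Wilson interval 23.1 to 88.2%), beside 55.5% over all genes. The 62.5% was the largest control share of the 4 roles, beside 55.6% of the Bmp ligand genes. With 8 or 9 genes per role, differences between roles were not tested. Grem1, the gene of the Bmp antagonist gremlin (chromosome 2, 113748675 to 113758648), lay at a control peak of 7.83 kb and a 2KO peak of 9.42 kb (ratio 1.20). The 2KO peak contained the control peak and ran past it by 571 and 1016 bp. Bmper, which encodes a Bmp-binding regulator of endothelial cells (chromosome 9, 23223076 to 23485215), had peaks of 9.13 and 5.84 kb over its start site (ratio 0.639). There the 2KO peak lay inside the control peak, 2705 bp short of its upstream edge. Lefty2, which encodes an inhibitor of Nodal (chromosome 1, 180893108 to 180899107), had peaks of 2.69 and 3.13 kb (ratio 1.16). Its paralog Lefty1 (180935022 to 180938401), 35.9 kb away, had a control peak of 1.33 kb and no 2KO peak.

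Nog, the gene of noggin (chromosome 11, 89300638 to 89302559), had a control peak of 4.00 kb over 69.7% of the gene (89297973 to 89301977). The closest 2KO peak lay 330 kb away. Chrd, the gene of chordin (chromosome 16, 20731425 to 20742384), held a control peak of 4.66 kb that began 1394 bp inside the annotated gene and covered the start site of the promoter table. This peak also lay within 1 kb of an end of Thpo, the thrombopoietin gene. It had no 2KO counterpart within 100 kb. Fst, the gene of follistatin, which binds activin, and Cer1, the gene of a Nodal and Bmp antagonist, had no peak and lay 797 and 398 kb from the closest control peak. In all, 12 of the 17 members with no peak were more than 100 kb from any control peak, and 11 of these 12 were also that far from any 2KO peak. The same share over all unmarked genes was not counted, so such distances are not shown to be particular to the members.

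The 16 control peaks at ends of member genes covered 95.8 kb, of which 40.2 kb (41.9%) lay under 2KO peaks. Over all 2010 control peaks at ends of protein-coding genes the share of bases was 55.5%. A 2KO peak met 7 of the 16 (43.8%, Wilson interval 23.1 to 66.8), compared with 56.5% of all gene-end peaks. Of member peaks of 5 kb or more, 5 of 9 were met (55.6%, Wilson interval 26.7 to 81.1%), and of narrower ones 2 of 7 (28.6%, 8.22 to 64.1%). These intervals overlap, so the members alone show no clear difference by width. Over all gene-end peaks the shares were 70.1 and 39.8%. An overlap of 1 bp was enough for a peak of any width to count as met. The peaks of Amh, Lefty2 and Grem1 lay wholly under 2KO peaks, those of Bmp6, Bmper, Gdf6 and Gdf7 were covered over 56.3, 63.9, 69.7 and 72.4%, and the other 9 were covered over none of their length. No member peak had a coverage between none and 56.3%.

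**Figure D4:**
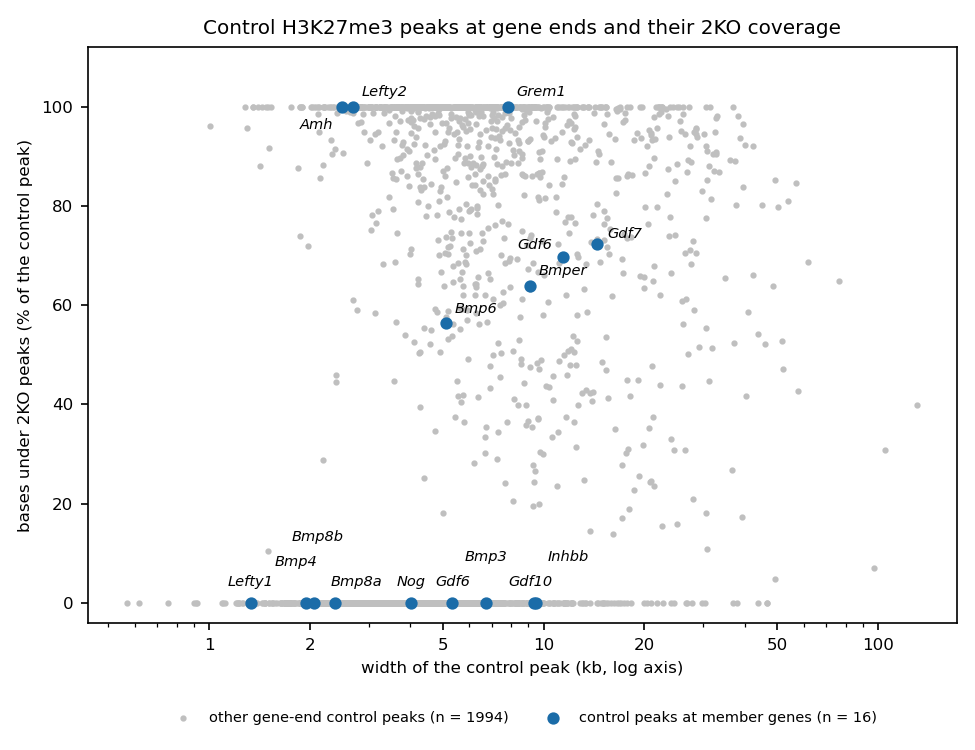
Width of each control peak at a gene end (kb, log axis) against the percent of its bases under 2KO peaks, for 16 peaks at member genes (blue, named) and 1994 others (grey). Member peaks are either uncovered (9 peaks, 1.33 to 9.46 kb), covered over 56.3 to 72.4% (4 peaks) or covered whole (Amh, Lefty2, Grem1).

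In the control list, the peaks of the 7 members marked in both lists had a median width of 7.83 kb (2.50 to 14.5), and those of the 8 marked in the control list alone 3.19 kb (1.33 to 9.46), so the ranges overlapped. Over all genes these medians were 6.72 and 4.55 kb. Gdf7 stood at the 91.1st percentile of width among all control peaks, Gdf6 at 86.9, Inhbb at 83 and Gdf10 at 82.7, whereas Bmp4 and Lefty1 stood at 8.87 and 2.78. Inhbb, Gdf10 and Bmp3 are thus wide control domains without a 2KO peak, and Lefty2 and Amh are narrow ones with it.

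At the 7 genes marked in both lists the widest peak of each list was compared. The log2 ratio of its width, 2KO over control, was -0.83 at Bmp6, -0.65 at Bmper, -0.52 at Gdf6, -0.47 at Gdf7, 0.22 at Lefty2, 0.27 at Grem1 and 0.37 at Amh. The upper-end control peak of Gdf6 (5.34 kb) thus did not enter its ratio, and the peaks counted for Amh cover none of that gene. The median was -0.47, with 4 genes narrower and 3 wider. Over the 1210 genes marked in both lists the median was 0.08 (quartiles -0.37 and 0.47), so Bmp6, Bmper, Gdf6 and Gdf7 lay below the lower quartile and the other 3 between the quartiles. Over the gene and 10 kb on both sides, called length summed to 156 kb for the control and 42.9 kb for the 2KO list over all 34 members, which is 27.5% of the control length. Without Tgfb2 it was 109 and 42.9 kb (39.3%). Over all protein-coding genes the lengths were 19.3 and 13.5 Mb (69.9%). Called length was smaller in 2KO cells at 15 members and larger at 3. The same count over all genes was not made, and the control list was the longer as a whole (24.8 against 16.4 Mb).

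By start sites in place of gene ends, 11 of the 21 members in the promoter table (52.4%) were within 1 kb of a control peak, where 9.07% of the 17274 protein-coding genes in it were, and 4 (19%) were within 1 kb of a 2KO peak, against 5.73%. By gene ends these 21 members gave 9 and 4. Tgfb2 and Chrd made the difference in control cells, and both were without a 2KO peak.

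In the rest of the pathway, 5 lists with 60 genes, the control list marked 13 genes (21.7%), where 10.1% of all protein-coding genes were marked. The 2KO list marked 6 of those 13 (46.2%, Wilson interval 23.2 to 70.9), beside 55.5% over all genes, a value inside that interval. The difference from the ligands and antagonists was not tested. Among 14 receptors the control list marked Acvr1c, the gene of the Nodal receptor Alk7 (3.37 kb), and among 8 Smad genes it marked Smad6, an inhibitory Smad (1.70 kb). These shares of 7.14 and 12.5% were near the 10.1% of all genes. Neither Acvr1c nor Smad6 was marked in the 2KO list. With a peak required at the gene end itself, no receptor and no Smad gene was marked. The control list marked 5 of 10 Bmp target genes (50%), against 10.1% of all genes. The 2KO list marked 1 of those 5 (20%, Wilson interval 3.62 to 62.4%), beside 55.5% over all genes. Msx1, a homeobox gene of tooth and hair mesenchyme, lay at a control peak of 26.2 kb, of which 56.3% lay under 2KO peaks. The 2KO list had 2 peaks within 1 kb of its ends, the wider of 7.55 kb. Dlx5 (42.4 kb), Bambi, a pseudoreceptor (5.17 kb), Hey1 (2.21 kb) and Msx2 (1.74 kb) were marked in the control list alone, although 2KO peaks covered 66.2% of the Dlx5 domain. Id1, Id2, Id3, Id4 and Dlx3 were marked in neither list.

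The control list marked 6 of 23 other antagonists and modulators (26.1%, against 10.1% of all genes). The 2KO list marked 5 of those 6 (83.3%, Wilson interval 43.6 to 97), beside 55.5% over all genes. Sost, the gene of sclerostin, had peaks of 9.58 and 4.64 kb, Chrdl2, a chordin-like gene, of 6.61 and 5.84 kb, Fstl4, a follistatin-like gene, of 6.46 and 7.68 kb, and Ltbp2, a latent Tgf-beta binding protein relative, of 5.43 and 2.04 kb. The fifth was Tdgf1, the gene of the Nodal co-receptor Cripto (3.69 and 5.62 kb). Tll1, a tolloid-like protease gene (4.15 kb), was marked in the control list alone. The 5 other ligand genes Gdf1, Gdf2, Inhbc, Inhbe and Bmp15 were marked in neither list. For comparison, the control list marked 6 of 19 Wnt ligand genes (31.6%), 3 of them also in the 2KO list (50%). It marked 11 of 22 genes named Fgf (50%), 10 of them also in the 2KO list (90.9%). The differences between these families were not tested.

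**Figure D5:**
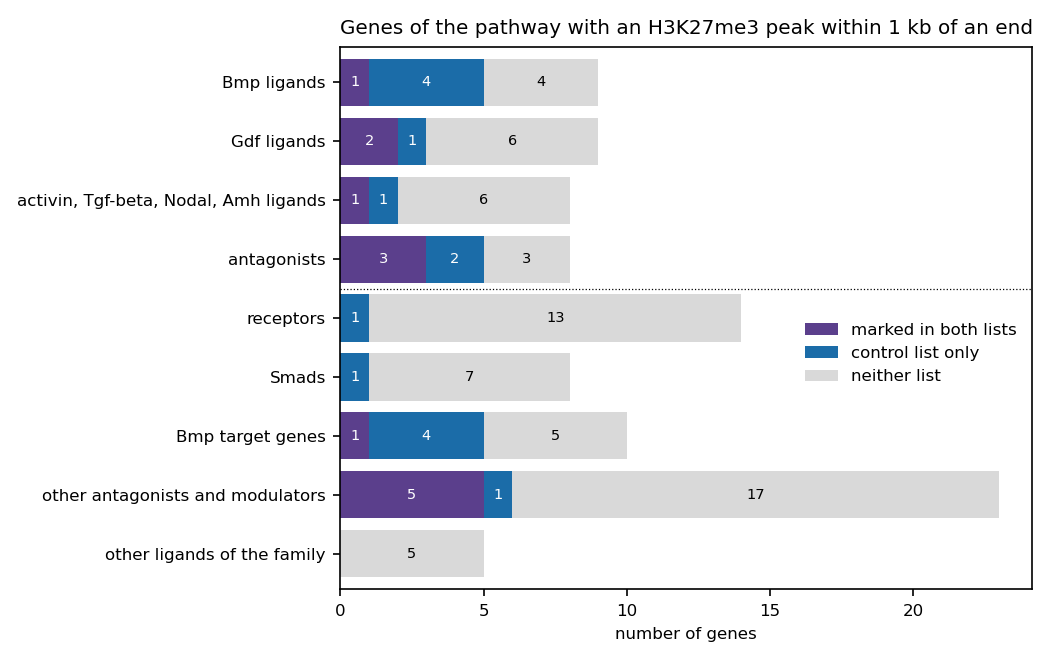
Number of genes marked within 1 kb of an end in both lists (purple), in the control list alone (blue) or in neither (grey), for the 4 groups of ligands and antagonists above the dotted line and 5 other lists of the pathway below it. Receptors and Smads have 1 marked gene each, and 5 of 8 antagonists and 5 of 9 Bmp ligands are marked.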

How the data were processed

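H3K27me3 was immunoprecipitated and sequenced; the control input and the Eed cKO libraries were not analysed here. The authors deposited 1 peak list per genotype with chromosome, start and end and no height, score or p-value, per the file headers. Bowtie2 2.3.3.1 and SAMtools 1.9 on mm10 were named in the submitters' processing notes; which caller made the peaks, at what threshold, with or without input and from pooled or single libraries is not given in the sources used here. Any difference between the lists in threshold or depth would alter which genes count as marked. Peak starts were taken to be 0-based and 1 was added.

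Overlap required 1 bp. Coverage, widths and Wilson intervals (95%) came from Python 3.11.15 (pandas 2.3.3, numpy 2.4.6), promoters were aligned with Biopython 1.88, and figures drawn with matplotlib 3.10.9. The overlap code was tested on simulated data. The gene table gives no strand, exon or intron; start sites came from the promoter table, in which 1839 overlapping pairs of windows on opposite strands were all complementary. Members and lists were chosen with earlier results of these data known. Named were all members, up to 4 genes per other list and class at the widest peaks, Ring1, Rnf2, Eed, and neighbours at a member's peak; Tdgf1, Hs1bp3, and unmarked genes of the other lists were named after their values were seen. Alternatives were other windows, gene bodies, start sites, peaks of at least 5 kb, equal numbers of the widest peaks, merging within 3 kb, and 50% overlap.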

Additional observations from a re-analysis of the deposited data

How the results depend on the processing

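No paired analysis was possible because the replicates of a genotype are not separated in its single peak list, which also means that none could be left out. Of 71 recomputed values 58 stayed close and 13 moved. Counts were close within 1.5 times, and a count of 0 only at 0. The share of bases was close within a Wilson interval that treated it as a share of 16 peaks. That interval is wide and is not an error of bases, so even 27.1% counted as close to 41.9%. The width ratio was close within the standard deviation of the member ratios, and the CpG difference if its sign held. Only the width ratio and the CpG difference could change sign, and neither did. With only peaks of at least 5 kb, the control list marked 8 members and the 2KO list 4, all of them marked in both. With equal numbers of the widest peaks (control peaks of 3.75 kb or more) the control list marked 9 members, of which the 2KO list marked 5 (55.6%, against 63% of all genes); Bmp4, Bmp8a, Bmp8b, Amh, Lefty1 and Lefty2 dropped out because their control peaks were narrower. By start sites, which 21 members had, 4 were marked in 2KO cells and 4 in both lists. With a window of 0, 3 Bmp ligands, 1 gene of the activin, Tgf-beta, Nodal and Amh group (0 in both lists), 3 Bmp target genes, 0 Smads and 0 receptors were marked in control cells; Bmp4, Bmp8a and Amh were the members lost. With a window of 5 kb, 2 Bmp target genes were marked in both lists, and Gdf11, Tgfb2 and Chrd were added in control cells. The share of member control bases under 2KO peaks (41.9%) ran from 27.1%, with the gene body as target, to 42.3%. Depth is unknown, so no limit of detection can be given.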
